A study of Mus musculus with 4 samples.

Results

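Thalamic spots were the spots of a mouse brain Visium experiment in which 6 genes typical of the thalamus were most abundant. Visium reads RNA on an array of barcoded spots, and a spot is a small region of tissue that can hold several cells or parts of cells. Spots over tissue with at least 2000 unique molecular identifiers (UMIs, each 1 captured molecule) were scored by the summed CPM (counts scaled to a common total per spot) of Prkcd, Tnnt1, Ramp3, Synpo2, Rab37 and Ntng1. Members were those at or above the 91st percentile of the score over the 4 capture areas pooled, which gave 1143 of 12696 spots. The study placed formalin-fixed, paraffin-embedded sections from mouse brains that had been inoculated with tumour and then resected on 4 capture areas at day 11. The capture areas TREAT 1+4 and TREAT 2+3 came from the hydrogel condition, and Vehicle 1+4 and Vehicle 2+3 from the condition labelled Vehicle, which the study's design calls not treated. All 4 areas shared the inoculation, the resection and the day. The series title calls the hydrogels drugless and the tumour glioblastoma, and the labels used here give no tumour line, mouse strain, sex or age. The study states 4 animals, each area held 2 pieces of tissue, and the labels do not tie pieces to animals. Capture areas were therefore taken as the replicates. P-values between TREAT and Vehicle are set against the spread between capture areas, which may in part be technical. In tests of single genes, edgeR estimated this spread in part from the other genes tested. Where the area entered as a block, p-values are set against how differences within an area vary from area to area.

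The thalamus relays sensory, motor and cognitive signals between the cerebral cortex and the rest of the brain. Its relay neurons are glutamatergic, depend on transcription factors such as Tcf7l2 and Gbx2 during development, and fire in bursts through low-threshold T-type calcium channels and hyperpolarization-activated HCN channels. Around an injury or a tumour, microglia and astrocytes are known to take up complement, antigen presentation and interferon programmes.

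The areas differed in depth. TREAT 1+4, TREAT 2+3, Vehicle 1+4 and Vehicle 2+3 held 3352, 3013, 3193 and 3488 spots over tissue, with median UMI counts of 14986.5, 12248, 7310 and 8377. The thalamic spots numbered 477 in TREAT 1+4, 205 in TREAT 2+3, 205 in Vehicle 1+4 and 256 in Vehicle 2+3. Their median UMI counts were 17888 in TREAT 1+4, 11641 in TREAT 2+3, 6211 in Vehicle 1+4 and 5983 in Vehicle 2+3. Summed over thalamic spots this came to 8655590, 2631834, 1328007 and 1595381 UMIs in the same order, so levels in Vehicle rest on fewer molecules. A total of 1825 barcodes were shared by all 4 areas, because barcodes mark array positions and not cells.

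The score chose the spots and its genes are given as a description only. The threshold was 2773.52 CPM. The 20 spots just inside it scored 2774.41 to 2804.38 CPM and the 20 just outside 2714.07 to 2772.79 CPM, and 106 members and 107 other spots lay within 10% of it. Prkcd, a protein kinase C, was at 2241, 2525, 1837 and 1576 CPM in thalamic spots of TREAT 1+4, TREAT 2+3, Vehicle 1+4 and Vehicle 2+3, against 97.4, 72.4, 77.5 and 110.6 CPM in all other spots. Tnnt1, a troponin subunit that serves as a thalamic marker in mouse, was at 482, 606, 520 and 338 CPM in thalamic spots and 14.4, 8.84, 11.5 and 14.5 CPM in the others. Ramp3, a receptor activity-modifying protein, was at 800.3, 832, 862 and 857 CPM in thalamic spots and 66.8, 30.3, 22.955 and 38.7 CPM in the others. Synpo2, an actin-binding protein, was at 259, 296, 256 and 313 CPM in thalamic spots and 14.5, 7.14, 6.37 and 11.6 CPM in the others. These 4 genes chose the spots, so their levels describe the rule and do not check the label. A median thalamic spot carried 79 UMIs of the 6 genes in TREAT 1+4, 58 in TREAT 2+3, 24 in Vehicle 1+4 and 22 in Vehicle 2+3, so membership was set by fewer molecules in Vehicle.

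Thalamic spots formed continuous patches, although position was not part of the rule. Of the neighbours of a thalamic spot, 87.8% in TREAT 1+4, 88.0% in TREAT 2+3, 75.4% in Vehicle 1+4 and 62.8% in Vehicle 2+3 were thalamic too. All 8 pieces of tissue held such a patch, of 176 of 178 members in the left and 299 of 299 in the right piece of TREAT 1+4, 172 of 172 and 32 of 33 in TREAT 2+3, 41 of 42 and 161 of 163 in Vehicle 1+4, and 115 of 120 and 112 of 136 in Vehicle 2+3. The loosest was the right piece of Vehicle 2+3, whose thalamic spots fell into 20 patches, with 16 isolated spots and a median of 4963.5 UMIs. The mean share of thalamic neighbours was 87.9% ± 0.09 in TREAT and 69.1% ± 8.91 in Vehicle (SD, n = 2 areas each), with a two-sided exact permutation p of 0.3333, which is the smallest p that 2 areas against 2 can give. In spots thinned to 2000 UMIs before scoring, these means were 84.0% ± 1.04 in TREAT and 66.1% ± 10.4 in Vehicle (SD, n = 2 each).

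**Figure D1:**
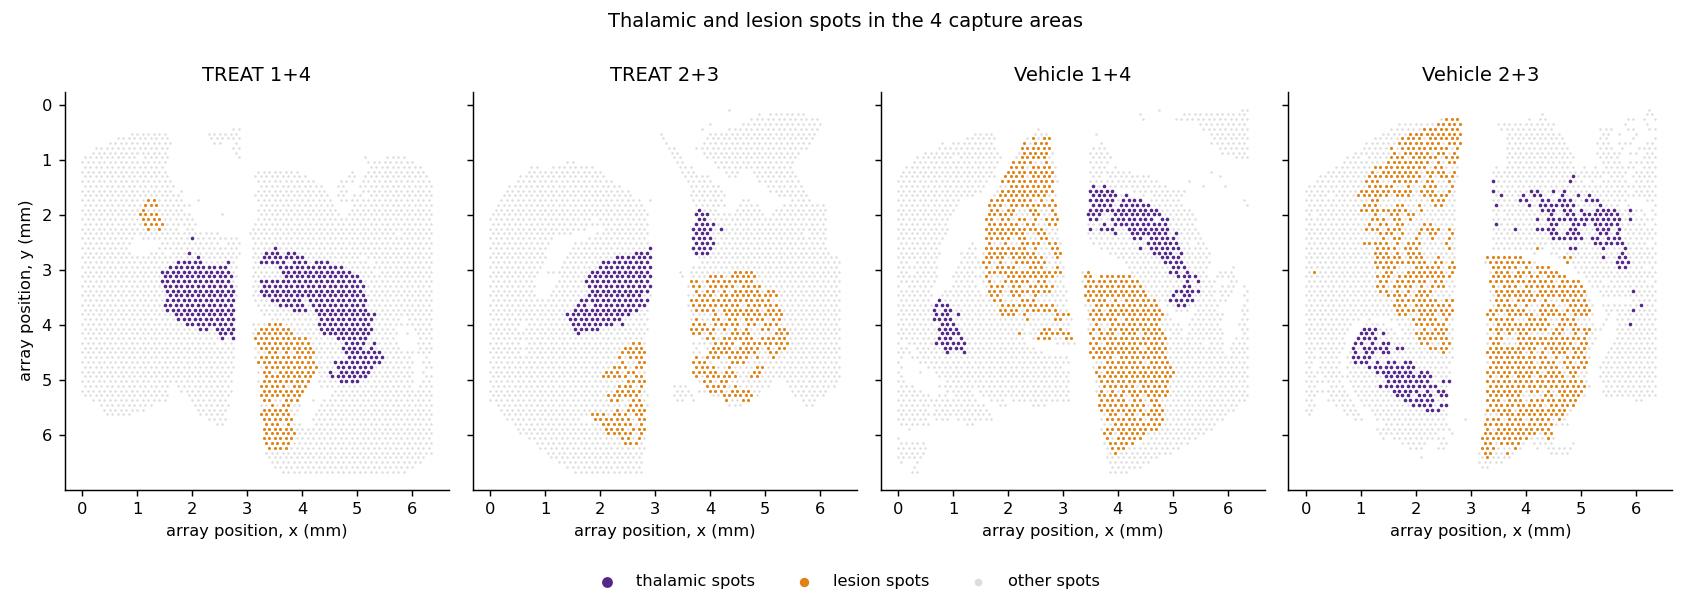
Positions of thalamic spots (purple), lesion spots (orange, rich in proliferation genes) and all other spots with at least 2000 UMIs (grey) in the 4 capture areas, in mm on the array. Each area holds 2 pieces of tissue, thalamic spots lie in 1 main patch per piece, and the lesion spots number 211 in TREAT 1+4, 384 in TREAT 2+3, 745 in Vehicle 1+4 and 979 in Vehicle 2+3.

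The share of spots that were thalamic was 14.2% in TREAT 1+4 (95% Wilson interval 13.1% to 15.5%), 6.82% in TREAT 2+3 (5.98% to 7.78%), 6.80% in Vehicle 1+4 (5.95% to 7.75%) and 7.69% in Vehicle 2+3 (6.84% to 8.65%). The intervals cover counting error only. TREAT 1+4 stood above the other 3 areas, and TREAT 2+3 lay between both Vehicle areas. The means were 10.5% ± 5.25 in TREAT and 7.25% ± 0.635 in Vehicle (SD, n = 2 each), with an exact permutation p of 0.6667, so the difference of 3.29 percentage points was within the spread between areas. With members taken from the 85th percentile of the score the difference turned to -0.28 percentage points. How much thalamus a section holds also depends on where the brain was cut, which the labels do not give.

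Against all other spots, which hold the lesion, thalamic spots carried more of most listed thalamic transcription factors and relay neuron genes in all 4 areas. The same held for part of the listed ion channels. This comparison is a description without a test, since the same spots were chosen by their expression. Of 20451 genes with counts, score genes left out, 503 (2.46%) were above 2-fold in thalamic spots of every area on the scale log2(CPM + 1), and 1661 (8.12%) were below it by as much. Genes of at least 50 CPM in either class in every area numbered 4791, of which 358 (7.47%) were higher and 348 (7.26%) lower. Across all genes the median log2 ratio was -0.35. Levels are compared between classes of spots for 1 gene at a time.

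Of 14 transcription factors linked to the thalamus, 9 were past 2-fold higher in every area and 2 past 2-fold lower, with a list median log2 ratio of 2.097. Rora, an orphan nuclear receptor, was at 998, 897, 842 and 672 CPM in thalamic spots of TREAT 1+4, TREAT 2+3, Vehicle 1+4 and Vehicle 2+3, against 81.4, 42.1, 33.9 and 38.2 CPM in the others. Tcf7l2, a Wnt pathway factor of the developing thalamus, was at 229, 239.6, 275 and 264 CPM in thalamic spots and 28.5, 10.9, 33.2 and 27.8 CPM in the others. Zic1, a zinc finger factor, was at 589.6, 502, 562 and 594 CPM in thalamic spots and 66.0, 20.6, 39.1 and 48.3 CPM in the others. For each of the 3 factors the lowest level in thalamic spots was above the highest level in the others. Lef1, Shox2, Gbx2, Lhx9, Zic4 and Prox1 made up the rest of the 9. The 2 lower factors were Nr4a2, at 0.757 to 2.67 CPM in thalamic spots and 5.86 to 21.8 CPM in the others, and Pou4f1, a habenular factor, at 0.764 to 9.46 CPM in thalamic spots and 5.98 to 26.1 CPM in the others.

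Of 18 further genes of thalamic relay neurons, 14 were past 2-fold higher in every area, with a median log2 ratio of 3.27. Slc17a6, the vesicular glutamate transporter VGLUT2 that subcortical excitatory neurons use, was at 281, 193, 319 and 343 CPM in thalamic spots of TREAT 1+4, TREAT 2+3, Vehicle 1+4 and Vehicle 2+3, against 44.8, 11.8, 21.9 and 22.4 CPM in the others. Plekhg1, a guanine nucleotide exchange factor, was at 666, 617, 813 and 813 CPM in thalamic spots and 47.6, 23.8, 27.1 and 45.0 CPM in the others. Adarb1, the RNA editing enzyme ADAR2, was at 1536, 1686, 1303 and 1241 CPM in thalamic spots and 166.7, 103, 71.6 and 87.6 CPM in the others. All 3 were several times higher in thalamic spots of each area. The 4 that were not past 2-fold in every area were Calb2, Necab1, Cdhr1 and Hs3st4. Necab1 was at 0 CPM in thalamic spots of 3 areas and at most 0.917 CPM in the other spots of any area. Calb2, which encodes the calcium-binding protein calretinin of midline thalamic neurons, was at 42.4, 49.3, 50.7 and 158 CPM in thalamic spots and 144, 23.1, 50.2 and 36.9 CPM in the others, so its order differed between areas.

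Among 18 low-threshold calcium, HCN, leak and related potassium channels, 7 were past 2-fold higher in every area and 1 lower. The list's median log2 ratio of 1.125 was no higher than the 1.15 of general neuronal genes. The list summed to 2462, 2417, 2660 and 2241 CPM in thalamic spots of the 4 areas. In the cortical spots described below it summed to 1492, 1393, 1558 and 1434 CPM. Cacna1g, the T-type calcium channel of relay neurons, was at 110.1, 107, 96.2 and 99.6 CPM in thalamic spots of TREAT 1+4, TREAT 2+3, Vehicle 1+4 and Vehicle 2+3, against 24.6, 13.7, 9.83 and 7.42 CPM in the others. Hcn4 was at 44.7, 37.5, 35.6 and 42.2 CPM in thalamic spots and 4.75, 2.69, 1.24 and 2.06 CPM in the others. Hcn2, another subunit of the family, was at 381, 351, 316 and 279 CPM in thalamic spots and 149, 88.1, 65.7 and 47.6 CPM in the others. All 3 channels were past 2-fold higher in thalamic spots of each area. Cacna1i, the T-type channel of the reticular nucleus, was at 4.97 to 13.2 CPM in thalamic spots and 16.5 to 54.3 CPM in the others.

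Of 27 glutamate and GABA receptor genes, 10 were past 2-fold higher in every area and 1, Gabra5, lower, with a median log2 ratio of 1.30 against 1.15 for general neuronal genes. The receptor list summed to 7084, 6523, 6753 and 6387 CPM in thalamic spots, 6096, 5746, 5835 and 5271 CPM in the cortical spots described below, and 3936, 2776, 2055 and 1287 CPM in all other spots, which hold the lesion. Gabra4 and Gabrd, which encode subunits of the extrasynaptic GABA-A receptors of relay neurons, were both among the 10. Gabra4 was at 830.0, 536, 664 and 603 CPM in thalamic spots of TREAT 1+4, TREAT 2+3, Vehicle 1+4 and Vehicle 2+3, against 116.8, 61.9, 51.5 and 47.7 CPM in the others. Gabrd was at 228, 294, 192 and 170.3 CPM in thalamic spots and 30.7, 24.1, 13.9 and 13.1 CPM in the others. For both subunits the lowest level in thalamic spots was above the highest level in the others.

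Some of the genes furthest above the other spots belonged to none of these lists. By the lowest of the 4 ratios, Abhd12b led, at 434, 326, 444 and 354 CPM in thalamic spots of TREAT 1+4, TREAT 2+3, Vehicle 1+4 and Vehicle 2+3, against 12.7, 3.62, 6.71 and 11.7 CPM in the others. Pcp4, a calmodulin-binding peptide, was at 4721, 4233, 3769 and 3232 CPM in thalamic spots and 425, 214, 129 and 136 CPM in the others. Rgs16, a regulator of G protein signalling, was at 201 to 348 CPM in thalamic spots and 23.6 to 32.3 CPM in the others. Plekhd1, Rasd1, Epn3, Mrvi1, Patj, Adra1b and Cpne9 completed the leading 25 genes together with genes of the lists above. Pdp1 and Amotl1, of the relay neuron list, were among the latter. Values by area are plotted for 24 of the 25.

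**Figure D2:**
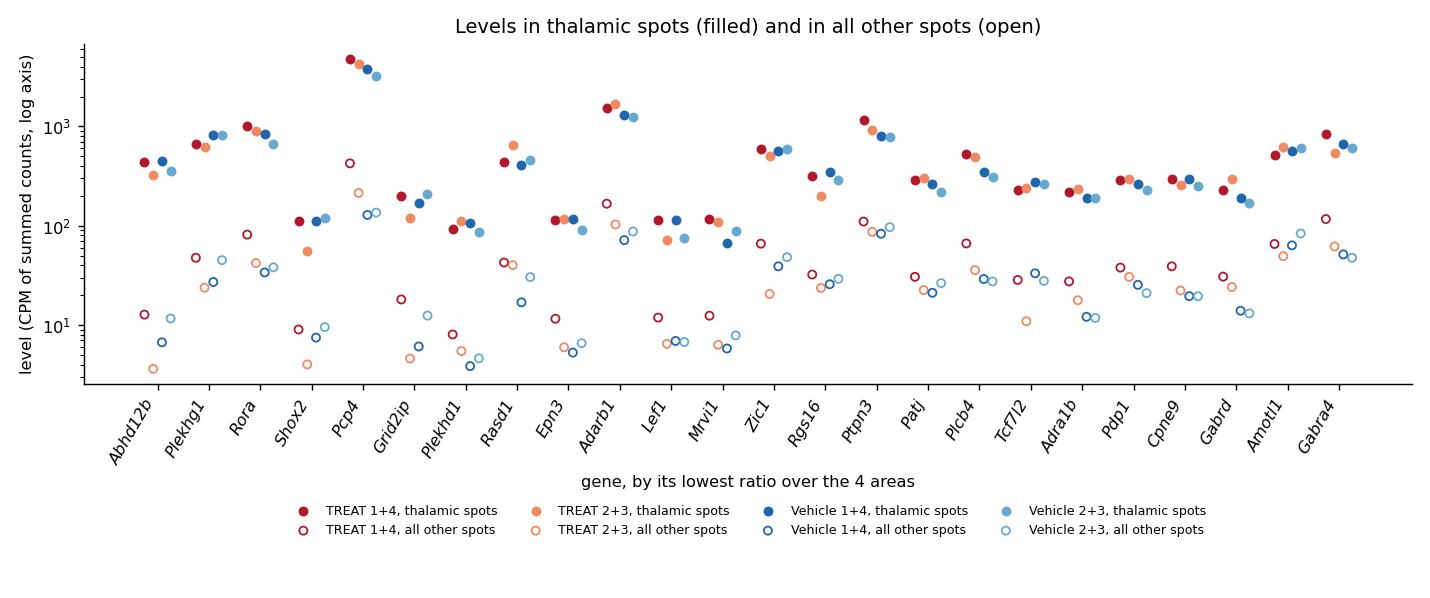
Levels of 24 of the 25 genes that were furthest above the other spots by the lowest of the 4 area ratios, in CPM on a log axis, with thalamic spots filled and all other spots open. Points are single capture areas, with TREAT in red and orange and Vehicle in blue, and each filled point lies above the open point of its area, with a lowest log2 ratio of 4.81 for Abhd12b and 2.82 for Gabra4.

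Genes of neighbouring regions varied by list and by area. Of 14 cortical genes, 7 were past 2-fold lower in every area and 1, Cux2, higher, with a median log2 ratio of -2.25. Slc17a7, the vesicular glutamate transporter VGLUT1 of cortex that thalamic relay neurons also express in part, was at 844 to 1307 CPM in thalamic spots and 348 to 1099.6 CPM in the others. Of 11 genes of the reticular nucleus and zona incerta with counts, 3 were past 2-fold lower in every area and 0 higher, and Gad2, a GABA synthesis enzyme, was at 17.4 to 40.4 CPM in thalamic spots. Of 13 habenular genes, 1 was lower and 0 higher, of 14 hypothalamic genes 3 were lower and 0 higher, of 12 hippocampal genes 3 were lower and 2 higher, and of 10 striatal genes 0 passed 2-fold in every area. In Vehicle 2+3 several of these lists summed higher in thalamic spots than in the others, with 303 CPM in thalamic spots and 143 CPM in the others for the habenular list, 290.2 and 219 CPM for the reticular one, 196 and 91.1 CPM for the striatal one, 1173 and 698 CPM for the cortical one and 693 and 585 CPM for the hippocampal one. In Vehicle 1+4 this held for the striatal list, at 215 and 119 CPM, and the cortical one, at 1312 and 1243 CPM. The habenular, reticular and hippocampal lists there were lower in thalamic spots, at 134 and 175, 288 and 381, and 578 and 607 CPM. General neuronal genes had a median log2 ratio of 1.15, oligodendrocyte genes of 1.34 and homeostatic astrocyte genes of 1.21, so the thalamic spots held glial as well as neuronal RNA.

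Genes of the lesion were low in thalamic spots. All 10 proliferation genes, 13 of 14 mesenchymal glioma genes with counts, 19 of 21 interferon-induced genes with counts and all 15 antigen presentation genes were past 2-fold lower than in the other spots of every area, with list medians of -3.56, -3.67, -3.26 and -2.98. The lesion was defined here by the proliferation list, at or above the 80th percentile of its summed level (1434.12 CPM) with at least 3 of 6 neighbours also there. No thalamic spot, 0 of 1143, reached that level. The proliferation list summed to 27.6, 41.0, 42.9 and 88.4 CPM in thalamic spots of TREAT 1+4, TREAT 2+3, Vehicle 1+4 and Vehicle 2+3, and to 1720 to 1913 CPM in lesion spots.

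Between hydrogel and Vehicle, thalamic spots differed in few genes by the test, and these were all lower in TREAT. The 7 genes were Igkc, Ifit3, Tagln2, Hist1h2ak, Lbh, Ccnd1 and Pde1b, out of 11817 tested (0.0592%) by edgeR's quasi-likelihood test on counts summed per area, with Benjamini-Hochberg adjustment. The genes that define relay neurons did not pass in either direction. In such sums, fewer cells of a type and less RNA per cell cannot be told apart.

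Igkc, the immunoglobulin kappa constant gene of plasma cells, was at 5.58 and 6.88 CPM in TREAT 1+4 and TREAT 2+3, against 40.9 and 36.6 CPM in Vehicle 1+4 and Vehicle 2+3. Both TREAT areas were below both Vehicle areas, with a log2 fold change of -2.68 ± 0.26 (SE) and an edgeR adjusted p of 0.003581. By piece of tissue the groups overlapped, since the left piece of Vehicle 1+4 held 3.70 CPM, within the 0 to 9.04 CPM of the 4 TREAT pieces, and the other 3 Vehicle pieces held 22.8 to 53.6 CPM.

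Ifit3, an interferon-induced gene, was at 10.8 and 9.94 CPM in TREAT 1+4 and TREAT 2+3, against 38.6 and 34.7 CPM in Vehicle 1+4 and Vehicle 2+3. Its log2 fold change was -1.79 ± 0.23 (SE), with an edgeR adjusted p of 0.02665, and the 4 TREAT pieces (5.53 to 24.0 CPM) lay below the 4 Vehicle pieces (29.6 to 41.0 CPM). Ifit3 and its neighbour Ifit3b are near-identical copies, so the probes may not separate them.

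Ccnd1, which encodes cyclin D1 of the G1 phase of the cell cycle, was at 38.1 and 35.2 CPM in the TREAT areas and 81.0 and 145 CPM in the Vehicle areas. It was lower in both TREAT areas, by a log2 fold change of -1.62 ± 0.23 (SE) with an edgeR adjusted p of 0.03276. Hist1h2ak, a histone H2A gene of a multicopy cluster whose counts may be shared between copies, was at 172 and 183 CPM in TREAT and 334 and 426 CPM in Vehicle. It fell by 1.097 on the log2 scale (SE 0.15, edgeR adjusted p 0.02665), although the right piece of TREAT 2+3, at 305 CPM, was above the left piece of Vehicle 1+4, at 303 CPM.

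Tagln2, an actin-binding protein, was at 30.1 and 27.1 CPM in TREAT 1+4 and TREAT 2+3, against 69.7 and 75.0 CPM in Vehicle 1+4 and Vehicle 2+3. It fell by 1.32 on the log2 scale (SE 0.17, edgeR adjusted p 0.02665). Lbh, a transcription cofactor, was at 55.3 and 56.9 CPM in TREAT and 114 and 143 CPM in Vehicle. It fell by 1.19 (SE 0.16, edgeR adjusted p 0.02665). Pde1b, a calcium-dependent phosphodiesterase, was at 16.4 and 14.1 CPM in TREAT and 57.6 and 38.5 CPM in Vehicle. It fell by 1.61 (SE 0.24, edgeR adjusted p 0.04567). For all 3 genes the 4 TREAT pieces lay below the 4 Vehicle pieces. Here and for Ifit3 the pieces are parts of the areas tested, so they describe the calls and are not further replicates. How many of all genes tested separate by piece was not counted.

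On build GRCm38.p6 the RefSeq annotation places Igkc at chr6:70726435-70726754, Ifit3 at chr19:34583119-34588982, Tagln2 at chr1:172500246-172507375, Lbh at chr17:72918305-72941946, Ccnd1 at chr7:144929931-144939831 and Pde1b at chr15:103503034-103530056.

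With all 4 areas and no block, 0 of 11817 genes passed as higher in TREAT by edgeR, 1766 genes had an unadjusted p under 0.05 in either direction, and DESeq2 called 48 genes, 3 higher and 45 lower. Under alternatives edgeR did call higher genes, 159 of 562 with a replicate block, 108 of 357 with no gene filter, 95 of 427 without TREAT 1+4 and 42 of 251 without TREAT 2+3. The smallest p among higher genes belonged to Hspa12a, a member of the heat shock protein 70 family, at 604 and 623 CPM in TREAT 1+4 and TREAT 2+3 and 385 and 334 CPM in Vehicle 1+4 and Vehicle 2+3. Both TREAT areas were above both Vehicle areas, with a log2 fold change of 0.78 ± 0.13 (SE), which missed the threshold at an edgeR adjusted p of 0.06947. Tpd52l1, Raph1, Bend6, Cntn4, Mob4, Rcan2 and Plcb4 followed, at log2 fold changes of 0.63 to 1.03 and edgeR adjusted p of 0.07339 to 0.1057.

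The relay neuron genes did not pass the test. Of 13 thalamic transcription factors tested, 0 passed in either direction and 7 were below 0, with a median log2 fold change of -0.04, against 0.0001 over all genes. Of 16 relay genes 0 passed, with a median of 0.11, of 15 channels 0 with a median of 0.04, and of 27 receptors 0 with a median of 0.06. Slc17a6, for example, had a log2 fold change of -0.46 ± 0.17 (SE), with an edgeR adjusted p of 0.2615. The 20 nuclear oxidative phosphorylation genes, which encode the respiratory chain, had a median of 0.23 with 17 above 0 and 0 past the test.

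Immune and reactive glial genes were mostly at lower levels in TREAT, although 1 member of these lists passed. Of 20 interferon-induced genes tested, 1 (Ifit3) passed and all 20 had a log2 fold change below 0, with a list median of -1.04. Cxcl10, a chemokine, was at 12.3 and 16.4 CPM in TREAT 1+4 and TREAT 2+3, against 33.3 and 52.3 CPM in Vehicle 1+4 and Vehicle 2+3, with an edgeR adjusted p of 0.05747. Oasl2, an antiviral sensor family member, was at 24.2 and 32.9 CPM in TREAT and 59.8 and 72.5 CPM in Vehicle, with the same adjusted p of 0.05747 (edgeR). In both genes the areas of the groups did not overlap, and both missed the threshold. Separation of 2 areas from 2 says little by itself, since an exact permutation test cannot give a p below 0.3333. Here and elsewhere in the text, how many of all genes tested separate by area was not counted.

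Of 14 antigen presentation genes 0 passed and all 14 were below 0, with a median of -0.81. H2-D1, a class I MHC heavy chain, was at 105 and 103 CPM in TREAT 1+4 and TREAT 2+3, against 184 and 275 CPM in Vehicle 1+4 and Vehicle 2+3, with an edgeR adjusted p of 0.05747. Of 14 reactive astrocyte genes 0 passed and 13 were below 0, with a median of -0.89, and Vim, an intermediate filament gene, was at 50.5 and 55.8 CPM in TREAT and 93.9 and 171 CPM in Vehicle with an edgeR adjusted p of 0.06947. Of 9 complement genes 0 passed with 8 below 0 (median -0.59), and of 11 homeostatic microglia genes 0 passed with 11 below 0 (median -0.34). This lean was not particular to thalamic spots. In the cortical spots described below, the antigen presentation list summed to 661 and 1339 CPM in TREAT and 1355 and 3226 CPM in Vehicle. The interferon-induced list summed there to 260 and 504 CPM in TREAT and 431 and 1055 CPM in Vehicle, with overlap. In the interaction with cortical spots given below, 0 of 14 and 0 of 21 of these genes passed, with 13 and 9 above 0.

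**Figure D3:**
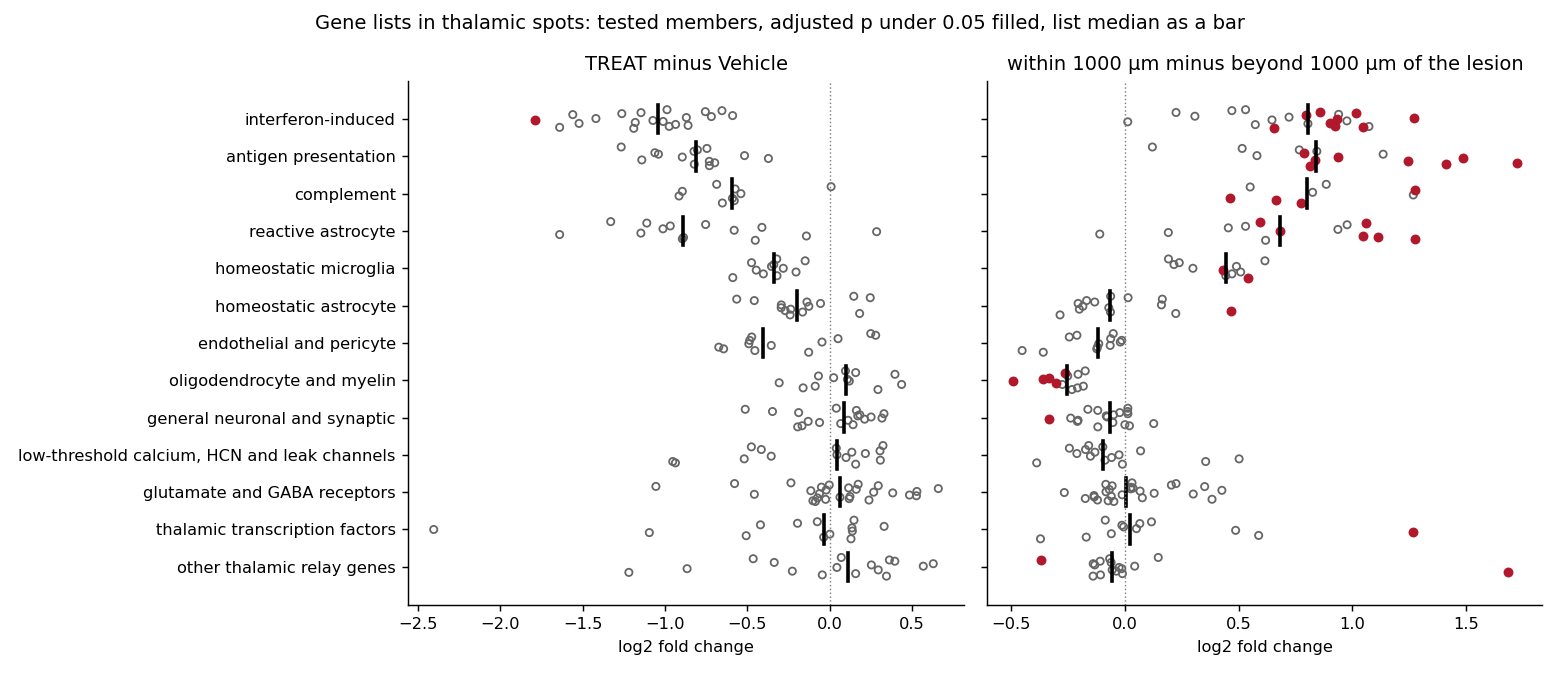
Log2 fold changes of the tested members of 13 gene lists in thalamic spots, for TREAT minus Vehicle (left) and for spots within minus beyond 1000 µm of the lesion (right), with genes at an edgeR adjusted p under 0.05 filled and the list median as a bar. Interferon-induced genes are all below 0 on the left, with 1 filled, and all above 0 on the right, with 9 filled. Medians of the relay neuron lists lie between -0.10 and 0.11 in both. On the right 12 of 15 channels and 13 of 16 relay genes are below 0.

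Several other measures moved with this comparison, and their part in the result was not tested. Thalamic spots of TREAT 1+4, TREAT 2+3, Vehicle 1+4 and Vehicle 2+3 lay at median distances of 1058, 1039, 964 and 819 µm from the nearest lesion spot of the same piece, and their median UMI counts differed as given above. The B and plasma cell list, which holds Igkc, summed to 26.1 and 21.7 CPM in TREAT and 79.1 and 60.2 CPM in Vehicle. Of its 9 genes, 0 and 2 were at 0 in the TREAT areas and 2 and 1 in the Vehicle areas. The 10 proliferation genes summed to 27.6 and 41.0 CPM in TREAT and 42.9 and 88.4 CPM in Vehicle, and the 14 mesenchymal glioma genes on the panel to 204 and 227 CPM in TREAT and 311 and 506 CPM in Vehicle. The T and NK cell list summed to 11.2 and 16.7 CPM in TREAT and 18.1 and 18.2 CPM in Vehicle, with none of its 12 genes abundant enough to be tested.

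The summed interferon list was lower in TREAT on both sides of 1000 µm, as a description without a test. Within 1000 µm of the lesion the list summed to 341.5 and 618 CPM in TREAT 1+4 and TREAT 2+3, against 779.5 and 831 CPM in Vehicle 1+4 and Vehicle 2+3. Beyond 1000 µm it summed to 226 and 248.7 CPM in TREAT and 390.5 and 677 CPM in Vehicle. The groups did not overlap on either side of 1000 µm. The antigen presentation list overlapped within 1000 µm, at 1249.8 and 1886 CPM in TREAT and 1868 and 2470.4 CPM in Vehicle. It did not beyond 1000 µm, at 781 and 568 CPM in TREAT and 905 and 2047 CPM in Vehicle.

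The 7 calls rested on both Vehicle areas. Without Vehicle 1+4 or without Vehicle 2+3 edgeR called 0 genes, with 1604 and 971 at an unadjusted p under 0.05, whereas it called 427 without TREAT 1+4 and 251 without TREAT 2+3, including all 7. Edges of the rule mattered too, with 0 calls for members from the 95th percentile (1168 at an unadjusted p under 0.05), from the 85th (1874) or with at least 5000 UMIs per spot (1562). In thalamic spots within 1000 µm of the lesion alone, edgeR called 4 genes, of which Igkc and Lbh were among the 7, and beyond 1000 µm it called 0, with 994 genes at an unadjusted p under 0.05.

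Whether the hydrogel difference in thalamic spots was unlike that elsewhere was tested as an interaction, with the capture area as a block. Against all other spots, 919 of 20026 genes passed (4.59%), of which 707 (3.53%) had a higher TREAT minus Vehicle change in thalamic spots and 212 (1.06%) a lower one. The other spots, unlike the thalamic ones, held the lesion, with 211 and 384 lesion spots in TREAT 1+4 and TREAT 2+3 and 745 and 979 in Vehicle 1+4 and Vehicle 2+3. Atf4, the transcription factor of the integrated stress response, was at 189 and 235 CPM in thalamic spots of TREAT and 189 and 186 CPM in those of Vehicle, while the other spots held 219.7 and 339.7 CPM in TREAT and 556 and 570.2 CPM in Vehicle. The interaction was 1.63 ± 0.26 (SE, log2) with an edgeR adjusted p of 0.01283. In thalamic spots both TREAT areas were above both Vehicle areas, TREAT 1+4 by less than 1 CPM over Vehicle 1+4. Lamb1, a laminin chain, was at 42.4 and 63.1 CPM in thalamic spots of TREAT and 39.4 and 45.4 CPM in those of Vehicle, while the other spots held 32.8 and 60.5 CPM in TREAT and 103 and 97.5 CPM in Vehicle (interaction 1.88 ± 0.27, edgeR adjusted p 0.01283). In the other spots both genes were lower in each TREAT area than in each Vehicle area, and in thalamic spots the areas of the groups overlapped for Lamb1.

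The genes with a lower change in thalamic spots included Ppp1r1b and Adcy5, both known from striatal projection neurons. Ppp1r1b, which encodes the phosphatase inhibitor DARPP-32, was at 89.7 and 179 CPM in thalamic spots of TREAT and 104.5 and 87.0 CPM in those of Vehicle, while the other spots held 358 and 259 CPM in TREAT and 52.4 and 30.5 CPM in Vehicle (interaction -2.11 ± 0.36, edgeR adjusted p 0.01692). Ppp1r1b was thus apart between groups in the other spots and not in the thalamic ones. Adcy5, an adenylyl cyclase, was at 69.9 and 59.6 CPM in thalamic spots of TREAT and 100.7 and 98.4 CPM in those of Vehicle, while the other spots held 76.0 and 50.95 CPM in TREAT and 26.3 and 19.8 CPM in Vehicle (interaction -1.67 ± 0.26, edgeR adjusted p 0.01283). Adcy5 stood apart in both, lower in TREAT in the thalamic spots and higher in TREAT in the others.

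The split of these calls changed with the scaling, the areas and the members. With library totals in place of TMM factors, edgeR called 1399 genes, 129 higher and 1270 lower, and the median interaction over all genes was -0.15 in place of 0.27, so directions here hold relative to those medians. With other spots below the lesion threshold only, 6 genes passed. Without Vehicle 2+3, 2 genes passed, without TREAT 1+4 325, and without TREAT 2+3 4227. Without Vehicle 1+4 there were 277 higher and 527 lower, and with members from the 95th percentile 385 higher and 339 lower.

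Against 1141 cortical spots, chosen by 5 cortical genes, the hydrogel difference in thalamic spots was unlike in 8 of 13008 genes (0.0615%), 5 higher (0.0384%) and 3 lower (0.0231%). Mbp, the myelin basic protein gene, was at 5627 and 4917 CPM in thalamic spots of TREAT 1+4 and TREAT 2+3 and 5388 and 4427 CPM in those of Vehicle 1+4 and Vehicle 2+3. In cortical spots Mbp was at 1435 and 1261 CPM in TREAT and 1871 and 1986 CPM in Vehicle. The groups overlapped in thalamic spots and not in cortical ones, with an interaction of 0.66 ± 0.10 (SE, log2) and an edgeR adjusted p of 0.02733. Camk2n1, an inhibitor of calcium/calmodulin-dependent kinase II, was at 1289 and 803 CPM in thalamic spots of TREAT and 1739 and 2061 CPM in those of Vehicle, with cortical levels of 6034 and 3927 CPM in TREAT and 5552 and 6072 CPM in Vehicle. Here the groups stood apart in thalamic spots and overlapped in cortical ones (interaction -0.60 ± 0.08, edgeR adjusted p 0.01263).

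None of the 7 genes that fell in thalamic spots passed this interaction, so their change was not shown to differ from that of cortex. Lbh, for example, was at 61.0 and 53.1 CPM in cortical spots of TREAT and 62.4 and 92.9 CPM in those of Vehicle, with an edgeR adjusted p of 0.1868 for the interaction. Pde1b was at 14.4 and 13.2 CPM in cortical spots of TREAT and 52.0 and 38.2 CPM in those of Vehicle, with an edgeR adjusted p of 0.965. Vehicle 2+3 gave 112 cortical spots, against 302, 431 and 296 in TREAT 1+4, TREAT 2+3 and Vehicle 1+4. The calls rested on few areas, with 23 genes without TREAT 1+4, 80 without TREAT 2+3, 34 without Vehicle 1+4 and 2 without Vehicle 2+3, and DESeq2 called 0 (178 at an unadjusted p under 0.05, and 1045 by edgeR).

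Within the thalamic spots, part of the immune, complement and myelin genes differed with distance to the lesion. Spots within 1000 µm of the nearest lesion spot of their piece were set against those beyond it, with the capture area as a block. They numbered 213 near and 264 far in TREAT 1+4, 100 and 105 in TREAT 2+3, 109 and 96 in Vehicle 1+4 and 202 and 54 in Vehicle 2+3. In TREAT 1+4 the left piece held 28 near and 150 far and the right piece 185 and 114. The left and right pieces held 73 and 99, and 27 and 6, in TREAT 2+3. They held 22 and 20, and 87 and 76, in Vehicle 1+4, and 98 and 22, and 104 and 32, in Vehicle 2+3. With the area as the block, distance and piece are thus partly mixed, and a fit with the piece as the block is given below. By edgeR 133 of 11287 genes passed (1.18%), 91 higher near the lesion (0.806%) and 42 lower (0.372%). Higher near the lesion were 8 of 14 antigen presentation, 4 of 8 complement, 9 of 21 interferon-induced and 6 of 13 reactive astrocyte genes, and 5 of 12 oligodendrocyte and myelin genes were lower. Of the relay genes 1 of 16 was higher and 1 lower.

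Cd74, the class II invariant chain, led the list by p. It was at 193 CPM near and 75.5 CPM far in TREAT 1+4, 321 and 73.7 CPM in TREAT 2+3, 260.5 and 69.7 CPM in Vehicle 1+4, and 403 and 287 CPM in Vehicle 2+3. Near spots were higher in all 4 areas, with a log2 fold change of 1.41 ± 0.12 (SE) and an edgeR adjusted p of 5.873e-13. B2m, the light chain of class I molecules, was at 602 CPM near and 412 CPM far in TREAT 1+4, 864 and 248.5 CPM in TREAT 2+3, 879 and 475 CPM in Vehicle 1+4, and 1055 and 917 CPM in Vehicle 2+3. It rose near the lesion by 0.82 ± 0.10 (SE, log2; edgeR adjusted p 2.287e-07), least in Vehicle 2+3. In all, 8 of 14 antigen presentation genes passed upward and 0 downward, with 14 above 0 and a list median of 0.84, against -0.0021 over all genes. The class II genes H2-Aa, H2-Eb1 and H2-Ab1 rose by 1.73 ± 0.20, 1.49 ± 0.20 and 1.25 ± 0.16, and the class I genes H2-D1 and H2-K1 by 0.84 ± 0.10 and 0.94 ± 0.14 (SE, edgeR adjusted p from 2.95e-08 to 1.26e-05).

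Of 8 complement genes tested 4 passed as higher near the lesion. C4b, a component of the classical complement pathway, was at 52.3 CPM near and 26.8 CPM far in TREAT 1+4, 131 and 35.7 CPM in TREAT 2+3, 137 and 36.7 CPM in Vehicle 1+4, and 127 and 78.8 CPM in Vehicle 2+3. It was higher near in all 4 areas, by 1.27 ± 0.14 (SE, log2; edgeR adjusted p 4.357e-09). The other 3 were the C1q chains C1qa, C1qb and C1qc, which microglia make, and the list median was 0.80. Spp1, the gene of osteopontin, was at 271 CPM near and 139 CPM far in TREAT 1+4, 229 and 9.88 CPM in TREAT 2+3, 24.5 and 7.34 CPM in Vehicle 1+4, and 193 and 139 CPM in Vehicle 2+3, higher near in every area but at unlike levels. Of 11 disease-associated microglia genes 4 passed (Spp1, Ctsd, Tyrobp and Cst7), and of 11 homeostatic microglia genes 2, Csf1r among them.

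Of 13 reactive astrocyte genes 6 passed upward, with a median of 0.68, and 4 of them (C4b, Cxcl10, Vim and Cd44) also stand in the complement, interferon-induced or mesenchymal list. Gfap, the astrocyte intermediate filament, was at 333 CPM near and 265 CPM far in TREAT 1+4, 509 and 147 CPM in TREAT 2+3, 580.3 and 275 CPM in Vehicle 1+4, and 458 and 539 CPM in Vehicle 2+3. It passed at 0.68 ± 0.12 (SE, log2; edgeR adjusted p 0.0003199), with Vehicle 2+3 running the other way. Of 14 homeostatic astrocyte genes 1 passed.

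Interferon-induced genes near the lesion were higher in 9 of 21 members tested, with 21 above 0 and a median of 0.80. They included Oasl2, Ifit3b, Cxcl10, Bst2, Gbp2, Isg15, Ifi35 and Ifit3. Cxcl10 was at 17.1 CPM near and 8.82 CPM far in TREAT 1+4, 24.6 and 8.36 CPM in TREAT 2+3, 46.4 and 14.7 CPM in Vehicle 1+4, and 55.2 and 41.0 CPM in Vehicle 2+3. It was higher near in each area, by 1.05 ± 0.21 (SE, log2; edgeR adjusted p 0.002378). Isg15, a ubiquitin-like modifier, rose by 0.80 ± 0.21 (edgeR adjusted p 0.03035) although Vehicle 2+3 ran the other way, at 35.5 CPM near and 44.1 CPM far.

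The promoters of these genes were searched for the core letters of the interferon-stimulated response element, 2 copies of GAAA with 2 bases of any kind between them, on both strands of the 250 bases upstream of each start in RefSeq's GRCm38.p6 table. The letters were in 978 of 32851 promoters (2.98%), and by gene in 936 of 27025 (3.46%). Of the interferon-induced list 18 of 22 genes had a promoter in the table and 11 of them held the letters (61.11%), against 2 of 10 antigen presentation genes, 0 of 5 complement genes, 0 of 13 thalamic transcription factors and 1 of 12 relay genes (8.33%). Of the 91 genes higher near the lesion 58 had a promoter in the table and 13 of them held the letters (22.41%). Cxcl10, Gbp2 and Isg15 are shown as 3 of the called genes that held them, 5′ to 3′ on the gene's strand, with the matching letters (on either strand) in capitals. They come from chr5:92348890-92349139 (minus strand), chr3:142620413-142620662 (plus strand) and chr4:156200819-156201068 (minus strand), and the capitals begin 213, 59 and 78 bases upstream of the start.
Cxcl10: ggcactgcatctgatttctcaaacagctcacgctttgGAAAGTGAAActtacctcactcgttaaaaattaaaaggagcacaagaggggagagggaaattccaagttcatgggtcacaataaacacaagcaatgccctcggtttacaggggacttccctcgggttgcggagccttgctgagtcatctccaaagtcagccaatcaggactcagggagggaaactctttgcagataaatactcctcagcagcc
Gbp2: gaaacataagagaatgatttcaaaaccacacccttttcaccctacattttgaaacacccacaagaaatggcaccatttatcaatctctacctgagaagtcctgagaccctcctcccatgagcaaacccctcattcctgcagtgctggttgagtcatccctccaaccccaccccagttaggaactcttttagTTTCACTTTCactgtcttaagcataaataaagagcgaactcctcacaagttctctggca
Isg15: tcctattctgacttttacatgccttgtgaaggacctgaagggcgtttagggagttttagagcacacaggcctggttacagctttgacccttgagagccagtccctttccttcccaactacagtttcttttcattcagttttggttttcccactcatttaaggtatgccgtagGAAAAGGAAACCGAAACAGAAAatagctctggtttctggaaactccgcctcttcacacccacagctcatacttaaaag
A match says only that these letters stand in the window, and whether a factor binds there was not measured.

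**Figure D4:**
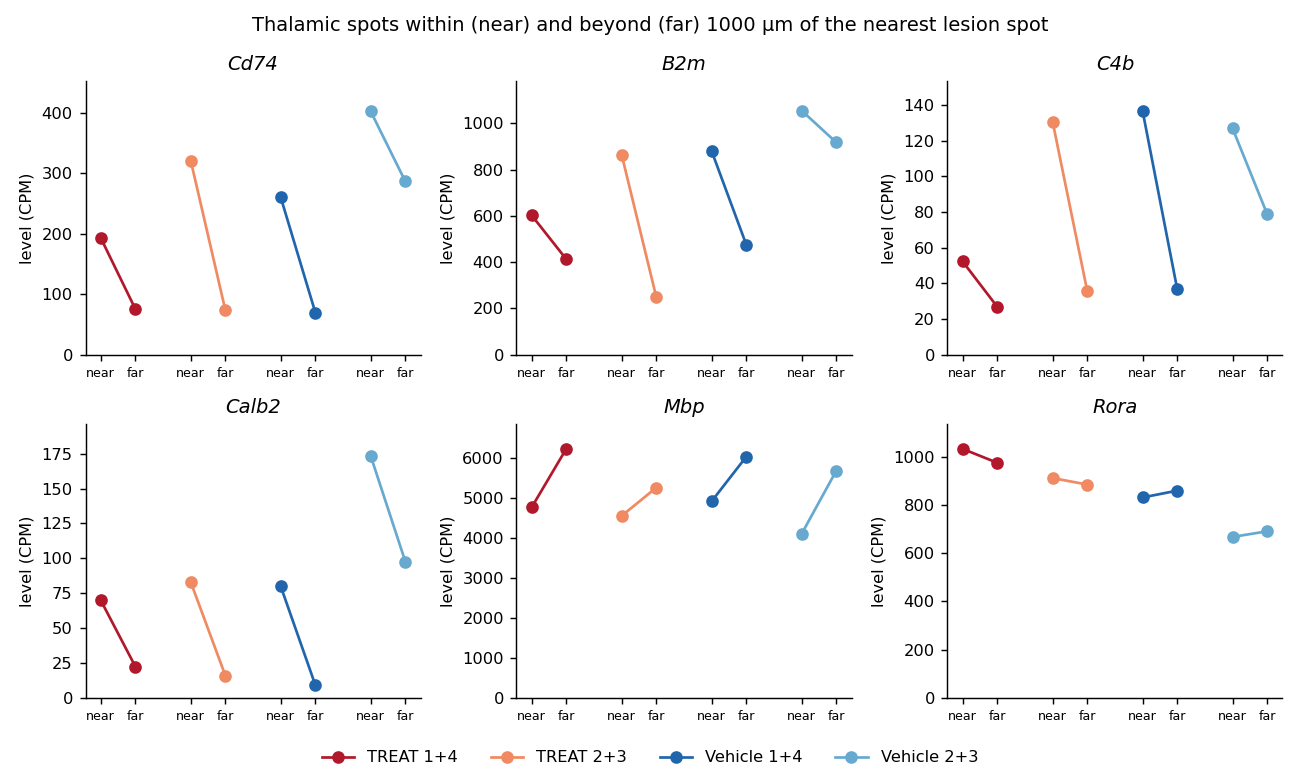
Levels in CPM of 6 genes in thalamic spots within (near) and beyond (far) 1000 µm of the nearest lesion spot, joined within each capture area. Cd74, B2m, C4b and Calb2 are higher near the lesion in all 4 areas, Mbp is lower in all 4, and Rora moves by little in each.

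Of 12 oligodendrocyte and myelin genes 5 passed as lower near the lesion. Mbp was at 4776 CPM near and 6243 CPM far in TREAT 1+4, 4561 and 5269 CPM in TREAT 2+3, 4927 and 6045 CPM in Vehicle 1+4, and 4110.3 and 5692 CPM in Vehicle 2+3. Near spots were lower in all 4 areas, with a log2 fold change of -0.36 ± 0.05 (SE) and an edgeR adjusted p of 5.915e-06. The 5 included Mbp, Mal, Mobp and Mag, and all 12 were below 0, with a median of -0.26. Nefm, a neurofilament subunit of large axons, was at 720.4 CPM near and 882 CPM far in TREAT 1+4, 686 and 856 CPM in TREAT 2+3, 652.5 and 721 CPM in Vehicle 1+4, and 640.1 and 905 CPM in Vehicle 2+3. It fell by 0.33 (SE 0.06, edgeR adjusted p 0.001103) and was the 1 of 18 general neuronal genes to pass.

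Among genes that mark thalamic identity, 3 passed between near and far spots, and their counts stand beside 1.18% of all genes tested. Of 12 thalamic transcription factors tested 1 passed, Lhx2, and the list median was 0.02. Rora had 1032, 911, 830.5 and 667 CPM near, against 974, 884, 859 and 690.3 CPM far, in TREAT 1+4, TREAT 2+3, Vehicle 1+4 and Vehicle 2+3 (log2 fold change -0.01 ± 0.06, edgeR adjusted p 0.995). Of 15 channels and of 26 receptors 0 passed by edgeR, with medians of -0.10 and 0.01. The channels leaned lower near the lesion, with 12 below 0 and 3 above, and the receptors had 13 on each side. Over all genes edgeR gave 998 an unadjusted p under 0.05 and DESeq2 called 21. Of 16 relay genes 2 passed, Scn4b and Calb2, and 13 were below 0 and 3 above, with a median of -0.06. Scn4b, a sodium channel beta subunit, fell by 0.37 (SE 0.10, edgeR adjusted p 0.0293). Calb2 was at 70.0 CPM near and 22.4 CPM far in TREAT 1+4, 83.0 and 15.96 CPM in TREAT 2+3, 79.95 and 9.18 CPM in Vehicle 1+4, and 173 and 97.7 CPM in Vehicle 2+3. It was higher near in every area, by 1.69 ± 0.15 (SE, log2; edgeR adjusted p 1.766e-11).

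Calb2 and Lhx2 also mark other parts of the thalamus and the habenula, and Lhx2 was at 15.2, 19.98, 23.2 and 20.5 CPM near, against 4.61, 3.04, 18.4 and 25.2 CPM far, so it was higher near in 3 of 4 areas. The habenular list holds Calb2, which was the 1 of its 5 tested genes to pass, and the list median was 0.03. The part of the habenula in the Calb2 result was not tested. Far spots of Vehicle 2+3 carried more of the hypothalamic and reticular lists, at 291.5 CPM near and 520.3 CPM far for the hypothalamic list and 202 CPM near and 642.5 CPM far for the reticular one. There Pmch, a hypothalamic neuropeptide precursor, was at 2.37 CPM near and 72.5 CPM far. Pmch passed as lower near the lesion, at -2.14 ± 0.31 (SE, log2; edgeR adjusted p 3.877e-06), and was lower near in all 4 areas.

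**Figure D5:**
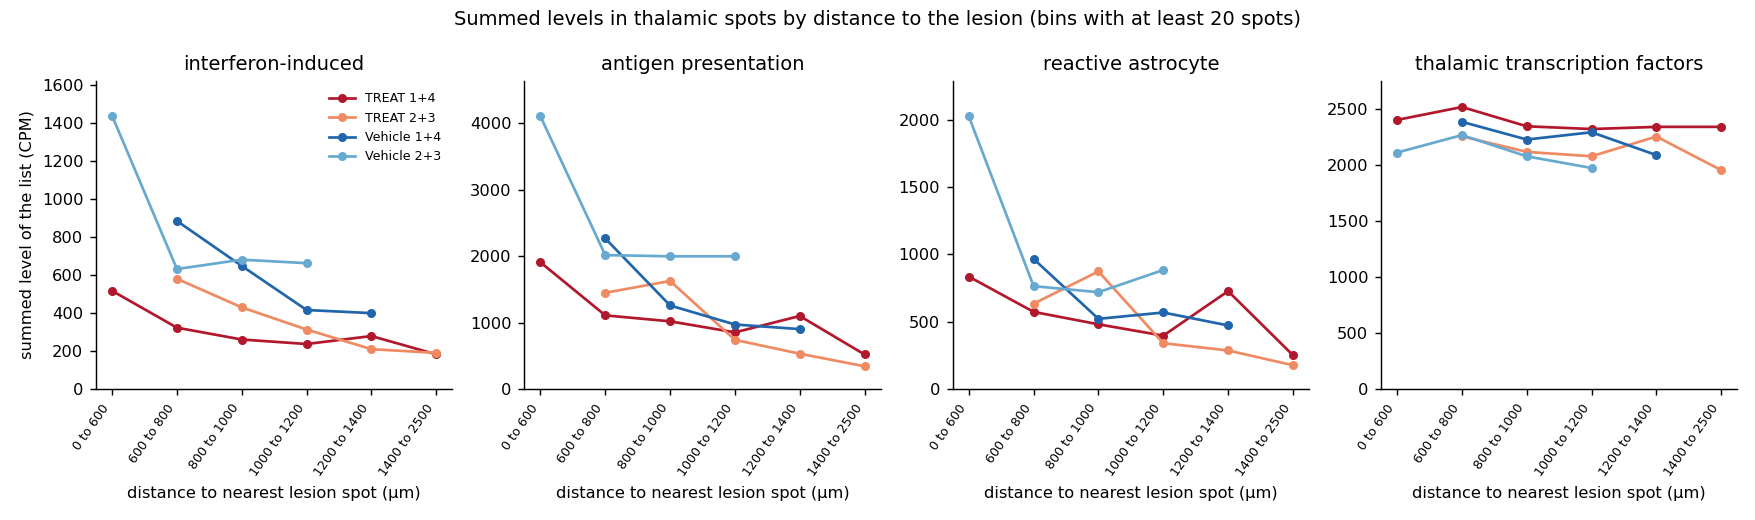
Summed levels in CPM of 4 gene lists in thalamic spots by distance to the nearest lesion spot in µm, for bins with at least 20 spots, 1 line per capture area. The interferon-induced list is at 517 CPM in TREAT 1+4 and 1440 CPM in Vehicle 2+3 within 600 µm and lower further out, while the thalamic transcription factors stay between 1957 and 2521 CPM.

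By finer bins of distance, the interferon-induced list of TREAT 1+4 summed to 517 CPM within 600 µm, 323 CPM from 600 to 800 µm, 261 CPM from 800 to 1000 µm, 237 CPM from 1000 to 1200 µm, 279 CPM from 1200 to 1400 µm and 183 CPM beyond 1400 µm. In TREAT 2+3 each step outward was lower, with 581 CPM from 600 to 800 µm, 430.3 CPM from 800 to 1000 µm, 314 CPM from 1000 to 1200 µm, 209.9 CPM from 1200 to 1400 µm and 191 CPM beyond. In Vehicle 1+4 the same bins held 886, 649, 416 and 399.9 CPM up to 1400 µm. In Vehicle 2+3 the 4 bins up to 1200 µm held 1440, 632, 682 and 663 CPM, so most of the drop lay within the first 800 µm. The bin within 600 µm had under 20 spots in TREAT 2+3 (16) and Vehicle 1+4 (13) and is not given for them. Each area was highest in the nearest bin that is given. In TREAT 1+4 thalamic spots of the left piece began at 608 µm and those of the right piece ended at 1473 µm. Its nearest bin therefore came from the right piece alone, and its profile joins unlike parts of both pieces.

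Lesion markers also moved with distance, and their part in these results was not tested. The proliferation list summed to 30.0, 62.6, 48.7 and 93.2 CPM near and 25.9, 19.7, 34.7 and 69.0 CPM far, in TREAT 1+4, TREAT 2+3, Vehicle 1+4 and Vehicle 2+3, with 3 of 10 genes tested and 0 passed by edgeR. The mesenchymal list summed to 254, 324, 353 and 534 CPM near and 168, 131.5, 252 and 392 CPM far, with 4 of 10 tested members passed upward (Tnc, Vim, S100a6 and Cd44). Median UMI counts were 16819, 11386.5, 6814 and 6027 near and 18623, 12083, 5759.5 and 5757 far. With spots within 500 µm left out of the near group, edgeR called 72 genes, of which 70 were among the 133. With the piece of tissue as the block in 7 pieces, it called 48, of which 47 were shared. Without TREAT 1+4 it called 34, without TREAT 2+3 66 and without Vehicle 1+4 78.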

How the data were processed

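The authors deposited raw UMI counts per spot and feature for 4 Visium capture areas of probe-based, formalin-fixed tissue chemistry. Per the submitters' processing notes, Space Ranger 2.1.1, R 4.4.1 and Seurat were used with build mm10. Of 32589 features, 304 probes marked as deprecated were left out of tests and, save as stated next, of gene levels, which leaves 32285. The score used CPM of all UMIs of a spot, and levels of the score genes and sums of lists are CPM of all UMIs summed over spots. Other gene levels are CPM of UMIs summed over spots of the remaining features. In thalamic spots of TREAT 1+4 these totals were 8655590 and 8607595 UMIs. The members and lists were chosen with earlier results of these data known.

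Counts were summed per area and class of spots (at least 20 spots) and tested with edgeR 4.0.16 in R 4.3.3 (TMM factors, filterByExpr, glmQLFit and glmQLFTest, Benjamini-Hochberg threshold 0.05), with DESeq2 1.42.0 as an alternative. The score genes stayed out of counts of calls. Thalamic against other spots used log2 ratios with 1 CPM added, and Wilson intervals are at 95%. Cortical spots were those at or above the 91st percentile (722.24 CPM) of 5 cortical genes, and neighbouring spots lie 100 µm apart. Python 3.11.15 with NumPy 2.4.6, SciPy 1.17.1, pandas 2.3.3, statsmodels 0.14.6 and matplotlib 3.10.9 did the rest. Doublet calling was not used, since a spot holds several cells. The text names, per comparison, the called genes of smallest p in each direction (where none was called, those of smallest p), the genes furthest from the other spots, and members of 33 lists. In data simulated with 100 genes changed 4-fold, edgeR recovered 98% of them between TREAT and Vehicle, and 67% of as many changed 2-fold. For the interaction with all other spots it recovered 91% at 4-fold and 28% at 2-fold, with cortical spots 91% and 64%, and for near against far 100% and 99%. False calls in these simulated data numbered 3, 3, 7 and 13, in the same order of the 4 comparisons. The alternatives covered the filter, scaling, score threshold, UMI minimum, score genes, contiguity, distance limit, blocks and each area left out. Some genes are not reported here.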

Additional observations from a re-analysis of the deposited data

Results flagged for a closer look

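In 919 genes the TREAT minus Vehicle change in thalamic spots differed from that in all other spots by edgeR's interaction test. Of these, the 24 of smallest p, taken in each direction, were flagged, and 23 of them are given here. On the log2 scale the difference was 2.30 for Cdkn1a, 1.88 for Lamb1, 1.97 for Tnfrsf12a, 1.74 for Bop1, 2.18 for Lama5, 2.72 for Acp5, 1.58 for Hexim1, 1.63 for Atf4, 1.67 for Col9a3, 2.07 for Sesn2, 1.66 for Taf12 and 1.83 for Nans. It was -3.31 for Pmch, -1.67 for Adcy5, -2.57 for Cacng3, -1.70 for Sh3gl3, -2.49 for Tmem91, -2.1005 for Fam81a, -2.11 for Ppp1r1b, -1.65 for Ppp1r1a, -2.13 for Gm45623, -1.48 for Igsf21 and -2.12 for Ngef. With other spots below the lesion threshold only, 5 of these 24 passed, and without Vehicle 2+3 1 did. Pmch was at 20.3 and 1.53 CPM in thalamic spots of TREAT and 9.09 and 16.4 CPM in those of Vehicle, while the other spots held 742 and 20.1 CPM in TREAT and 21.2 and 41.2 CPM in Vehicle, so TREAT 1+4 alone was high there.

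Against cortical spots the change differed in 8 genes by the same test. The difference was 1.06 for Clstn2, 1.45 for Adamts2, 0.66 for Mbp, 4.49 for Avp and 0.87 for Zdhhc22, and -0.60 for Camk2n1, -0.96 for Rph3a and -1.95 for Gm45623. Avp was at 1.55 and 1.80 CPM in cortical spots of TREAT and 1.60 and 110.4 CPM in those of Vehicle, so 1 area, Vehicle 2+3 with 112 cortical spots, carried it. Clstn2, a synaptic adhesion protein, was at 112 and 107 CPM in thalamic spots of TREAT and 95.4 and 91.4 CPM in those of Vehicle, while cortical spots held 97.8 and 93.3 CPM in TREAT and 177 and 153 CPM in Vehicle.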

How the results depend on the processing

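The difference in the share of thalamic spots turned to -0.28 percentage points with the 85th percentile and kept its direction under the other alternatives run, and the mean share of thalamic neighbours was 56.2% with the 95th percentile, against 78.5%. Between TREAT and Vehicle the 7 calls became 48 with DESeq2, 357 with no gene filter, 562 with a replicate block, and 0 with the 95th percentile, the 85th percentile, at least 5000 UMIs or spots beyond 1000 µm, 4 within 1000 µm, and 427, 251, 0 and 0 without TREAT 1+4, TREAT 2+3, Vehicle 1+4 and Vehicle 2+3. Whether the shared area numbers pair the samples is not known, since the labels do not explain them. Deviations of TREAT 1+4 and Vehicle 1+4 from their group means correlated at r = 0.03 over 10021 genes. With 2 areas a group this cannot settle the pairing. Against all other spots the 919 calls became 436 with DESeq2 (200 higher, 236 lower), 1399 with library totals, 6 with other spots below the lesion threshold, and 325, 4227, 804 and 2 with those areas left out in turn. Against cortical spots the 8 calls became 0 with DESeq2, 72 with no gene filter, 20 with the 95th percentile, 16 with library totals (7 higher, 9 lower), and 23, 80, 34 and 2 likewise. Near against far, the 133 calls became 21 with DESeq2, 48 with the piece as the block, 72 with near spots beyond 500 µm only, and 34, 66, 78 and 137 likewise. The cause was not tested in any of these. A limit of 1500 µm was not run, since 1 area had enough far spots. The scaling by library totals, the distance splits between TREAT and Vehicle, the piece block and the 500 µm exclusion were chosen after seeing the data. No gene reversed among the 15, 24, 16 and 24 genes followed through the alternatives of these 4 comparisons, and other genes of the text were not followed. Depth was lowest in Vehicle, and 2 areas a group limit every test.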
